A study of Mus musculus with 8 samples.

Results

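The genes described here encode the mitochondrial oxidation of fatty acids and the making and export of ketone bodies in mouse liver. They were taken from a list of 33 genes by symbol: acyl-CoA synthetases, the carnitine shuttle, the enzymes of the beta-oxidation spiral and the ketone genes. Of the 33 genes, 31 have a row among the 20894 genes of the table, and Acads and Echs1 were not analysed here. Bulk RNA was sequenced from the livers of wild-type mice injected with AAV8-TBG-POLR2G (POLR2G, 4 libraries) or with AAV8-TBG-GFP (GFP control, 4 libraries), all of them killed after a fast in the daytime. AAV8 is a viral vector that enters liver cells, TBG is a promoter active mainly in hepatocytes, and POLR2G is a subunit of RNA polymerase II. Age, sex, strain and dose are not in the labels, and the whole tissue was measured, so other liver cells without an active TBG promoter are part of each library.

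In fasting, fatty acids released from fat tissue reach the liver, where acyl-CoA synthetases activate them and the carnitine shuttle carries the long-chain ones into mitochondria. Each turn of the beta-oxidation spiral dehydrogenates, hydrates, oxidizes and cleaves the chain to acetyl-CoA, and electrons leave through the electron transfer flavoprotein. Much of the acetyl-CoA becomes acetoacetate and 3-hydroxybutyrate, the ketone bodies that the liver exports. Many of these genes are known targets of the fasting receptor PPARA.

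Total estimated counts were 16362899 to 22165491 in the POLR2G libraries and 14159056 to 18865284 in the GFP control libraries. Polr2g had 38649 to 54553 counts in the 4 POLR2G libraries and 213 to 258 in the 4 GFP control libraries, so every library matched its group. The study's text speaks of mice without saying which animal gave which library, and 1 POLR2G column carries a number that the labels do not list. It is called the unnumbered POLR2G library. Levels are in CPM, that is counts divided by TMM-adjusted library sizes. Folds are POLR2G over GFP control from the quasi-likelihood test of edgeR over 10390 genes. GFP control replicate 3 stood apart from the other 3 GFP control libraries in genes of male liver. Cyp4a12a, a male-biased cytochrome P450, had 341 to 461 CPM in the POLR2G libraries, against 92.0 CPM in that library and 442 to 563 CPM in the other 3 GFP control libraries. The Y-linked Eif2s3y had 46.3 to 63.8 CPM in the POLR2G libraries, against 21.7 CPM in that library and 55.1 to 62.5 CPM in the other 3. Hepatocyte markers summed to 110930 to 124107 CPM in the POLR2G libraries and 117339 to 139305 CPM in the GFP control libraries. Most of that sum was Alb, at 83336 to 95547 CPM in POLR2G and 90018 to 109462 CPM in GFP control libraries. Of 7 tested hepatocyte markers, 6 had a lower mean in the POLR2G libraries, beside 5266 of all 10390 genes tested. Kupffer cell and macrophage markers summed to 371 CPM in the unnumbered POLR2G library and 187 to 233 CPM in the other 3 POLR2G libraries, against 172 to 270 CPM in the GFP control libraries. Markers of adipocytes and muscle, tissues that also oxidize or store fatty acids, had at most 8 counts of any gene in a library, and Lep, Acta1 and Myh4 were at 0 in all 8. The part of these differences in the results below was not tested. In bulk tissue, fewer cells of a type and less RNA per cell cannot be told apart.

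Sequence upstream of RefSeq start sites is shown for 5 genes. Acad10 and Slc16a1 are the members with enough counts whose groups did not overlap, Cpt1a encodes the gate of the shuttle, and Hadha and Hadhb are a pair that starts head to head. Bases are from the RefSeq promoter table (GRCm38.p6), cut to those outside exons in GENCODE M21, 5′ to 3′ on the gene's strand (plus strand for the shared stretch). Capitals mark the letters AGGTCA on either strand, the unit of the direct repeat that PPARA binds together with its partner RXR.
Acad10: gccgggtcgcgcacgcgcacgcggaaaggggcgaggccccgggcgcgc
Slc16a1: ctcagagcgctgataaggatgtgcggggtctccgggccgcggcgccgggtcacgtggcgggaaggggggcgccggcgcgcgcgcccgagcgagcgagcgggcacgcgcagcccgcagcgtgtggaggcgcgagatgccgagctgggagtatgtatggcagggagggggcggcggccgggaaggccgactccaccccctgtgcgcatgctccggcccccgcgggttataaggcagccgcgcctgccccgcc
Cpt1a: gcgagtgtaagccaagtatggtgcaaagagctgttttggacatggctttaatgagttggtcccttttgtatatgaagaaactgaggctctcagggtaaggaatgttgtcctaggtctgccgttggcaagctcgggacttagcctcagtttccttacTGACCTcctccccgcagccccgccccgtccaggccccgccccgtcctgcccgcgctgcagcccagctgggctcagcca
Hadha and Hadhb: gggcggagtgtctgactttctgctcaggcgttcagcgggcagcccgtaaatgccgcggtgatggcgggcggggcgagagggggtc
The Acad10 stretch is chr5:121660515-121660562 on the minus strand and holds all 48 bases between Acad10 and its divergent neighbour Brap. The Slc16a1 stretch is chr3:104638414-104638663 on the plus strand, the Cpt1a stretch is chr19:3323051-3323284 on the plus strand, and the stretch between Hadha and Hadhb is chr5:30155163-30155247. In GENCODE M21 Cpt1a starts at 3322334, so its stretch lies within the annotated gene, upstream of the RefSeq start only. Promoter windows of 300 bases, from 250 before to 50 after the start, were found for 28 of the 33 genes, 30 windows in all. Entries for Crat, Acaa2, Decr1, Acat1 and Slc16a6 were not found. The letters AGGTCA on either strand stood in 5 of the 30 windows (16.7%), those of Cpt1a, Acadm, Acadvl, Acsm1 and Echs1, against 16.3% of 32851 promoter windows of all genes. The full direct repeat of that unit with 1 base between the copies, which overlaps the single-unit search, stood in 0 of the 30 and in 0.0396% of all windows. A missing match says only that these letters are not in this window.

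No gene of the oxidation and ketone list passed the test between the POLR2G and the GFP control livers. Of the 31 genes, 26 had enough counts to be tested, and edgeR called 0 of them at an adjusted p under 0.05, where it called 0.0385% of all genes tested. DESeq2 also called 0 of 26, against 1.35% of all genes, and limma-voom called 0 of 26, against 0.0289%. At an unadjusted p under 0.05, edgeR gave 1 gene higher in the POLR2G libraries (Acad10) and 3 lower (Crat, Acad11 and Slc16a1). That is 3.85% higher against 4.2% of all genes tested, and 11.5% lower against 4.1%. DESeq2 gave 2 higher and 4 lower at that level and limma-voom 2 higher and 3 lower. The mean was lower for 19 of the 26 genes and higher for 7, against 5266 lower and 5124 higher of all 10390 genes tested. The median log2 fold change of the 26 was -0.063, beside -0.0031 over all genes tested. Scaling by library totals only gave 1 higher and 7 lower at that level. With that scaling the median log2 fold change of all genes was also lower, at -0.079. Upper quartile scaling gave 2 higher and 3 lower. Shares over all genes at that level are given for the main edgeR fit only. The counts from the other fits therefore have no background of their own beside them. Without GFP control replicate 3 the median of the list genes was -0.14, beside -0.0011 over all genes.

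Most of these genes were measured precisely enough to bound the difference. The 95% interval of the fold change lay within 1.5-fold in either direction for 20 of the 26 genes (76.9%), against 51.7% of all genes tested. The exceptions were Crat, Acad11, Cpt2, Acad10, Acsl1 and Acsl3. All 10 tested genes with 1 annotated coding transcript stayed within that bound, among them Slc25a20, Acadl, Hadha, Hadh, Decr1, Etfa and Acat1. These intervals are for single genes and are not adjusted for their number.

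**Figure D1:**
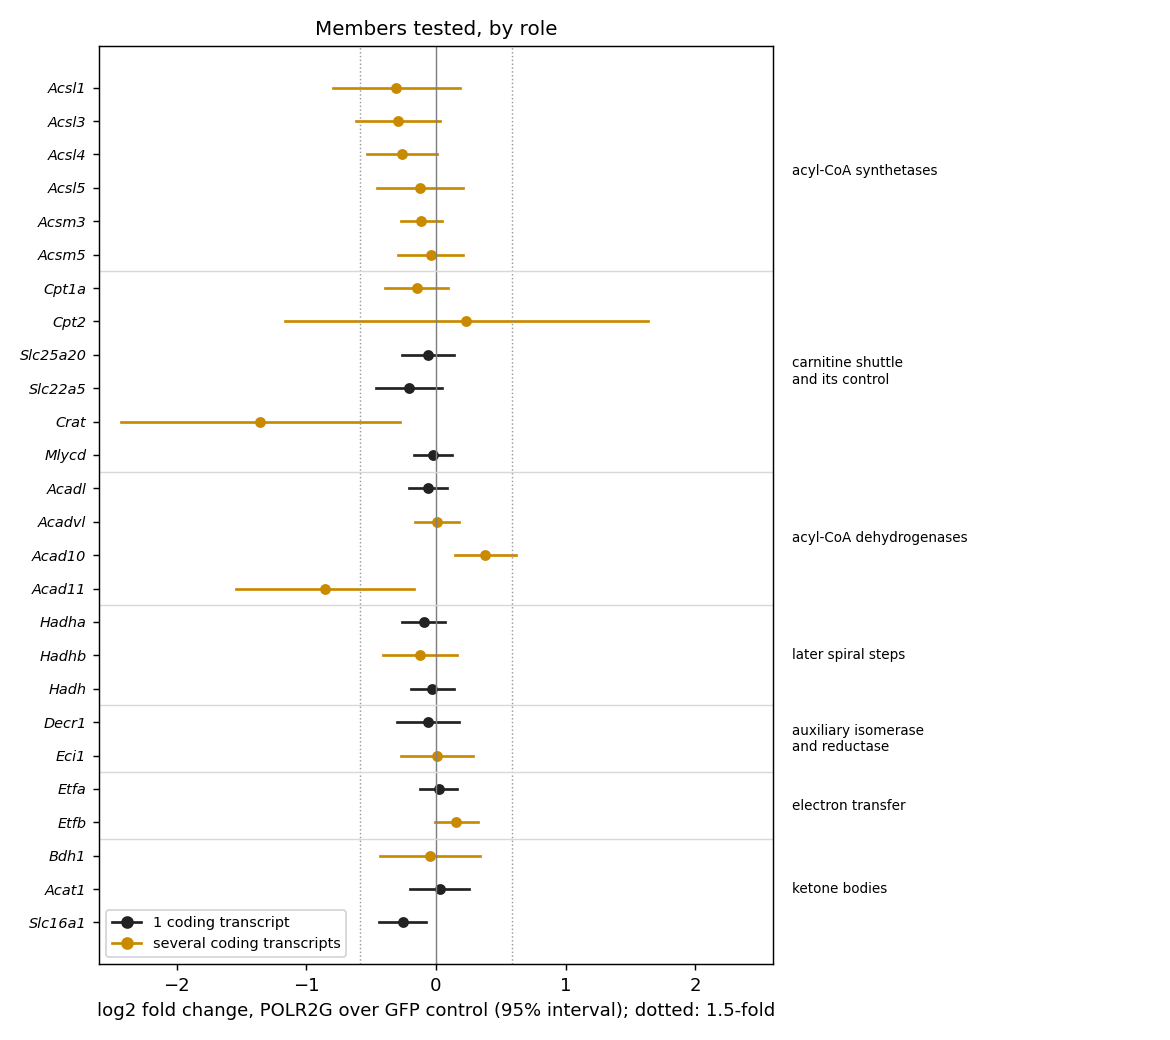
Log2 fold change, POLR2G over GFP control, of the 26 tested genes (points) with 95% intervals (lines), grouped by role; the dotted lines mark 1.5-fold, and colour separates genes with 1 annotated coding transcript from those with several. The intervals of Crat, Acad11 and Slc16a1 lie below 0 and that of Acad10 above it, and none of the 26 passed after adjustment.

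Acyl-CoA synthetases, which join fatty acids to coenzyme A, had lower means in the POLR2G libraries for all 6 tested genes (median log2 fold change -0.19), and none passed. Acsl5 had the highest CPM of them. It measured 439, 406, 414 and 489 CPM in POLR2G replicates 1, 3 and 4 and the unnumbered library, against 451, 480, 359 and 614 CPM in GFP control replicates 1 to 4. Its log2 fold change was -0.12 (SE 0.146), at an edgeR adjusted p of 0.886. The groups overlapped, with GFP control replicate 4 highest and replicate 3 lowest of all 8 libraries. Acsl4, a synthetase that prefers arachidonic acid, averaged 109 ± 8.48 CPM in POLR2G and 131 ± 21.9 CPM in GFP control livers (SD, n = 4 each; log2 fold change -0.26, SE 0.119, edgeR adjusted p = 0.605). Acsl3 and Acsl1 had log2 fold changes of -0.29 (SE 0.143) and -0.31 (SE 0.217). Acsl1, a main long-chain synthetase of liver, stood at only 268 to 520 counts in the table and has 7 annotated coding transcripts. The medium-chain synthetases Acsm3 (-0.11, SE 0.0716) and Acsm5 (-0.041, SE 0.111) had the smallest differences of the 6. The direction was not stable for Acsm5, which took the other sign in 4 of 20 alternative settings, or for Acsl5, whose log2 fold change was 0.024 without GFP control replicate 4. The third medium-chain gene, Acsm1, is described with the genes of few counts.

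The carnitine shuttle moves long-chain acyl groups into mitochondria. Cpt1a, its rate-limiting outer-membrane step, measured 732, 791, 672 and 616 CPM in POLR2G replicates 1, 3 and 4 and the unnumbered library, against 883, 668, 738 and 821 CPM in GFP control replicates 1 to 4. The groups overlapped, and the fold did not pass (log2 fold change -0.15, SE 0.108, edgeR adjusted p = 0.781, exact permutation p = 0.229). Its interval, -0.39 to 0.097, lies within 1.5-fold in both directions. Mlycd, which breaks down malonyl-CoA, the inhibitor of CPT1, averaged 94.95 ± 6.17 CPM in POLR2G and 96.6 ± 2.53 CPM in GFP control livers (log2 fold change -0.024, SE 0.0659). Slc25a20, the carnitine-acylcarnitine carrier of the inner membrane, had a log2 fold change of -0.062 (SE 0.0892). The carnitine importer gene Slc22a5 averaged 38.4 ± 5.77 CPM in POLR2G and 44.4 ± 4.02 CPM in GFP control livers (-0.21, SE 0.114, edgeR adjusted p = 0.682).

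Crat had the largest fitted difference of the 26 tested genes. It encodes carnitine acetyltransferase, which exchanges acetyl groups between coenzyme A and carnitine (ENSMUSG00000026853; GRCm38 chromosome 2, 30400471 to 30415813, minus strand). It measured 1.98, 12.4, 5.01 and 5.57 CPM in POLR2G replicates 1, 3 and 4 and the unnumbered library, against 19.8, 8.30, 15.9 and 19.3 CPM in GFP control replicates 1 to 4. POLR2G replicate 3 lay above GFP control replicate 2, so the groups overlapped. The mean was 2.56-fold lower in the POLR2G livers (log2 fold change -1.35, SE 0.479, 95% interval -2.43 to -0.28), with an unadjusted p of 0.0190 and an adjusted p of 0.485 in edgeR and an exact permutation p of 0.0571. The log2 fold change was -1.05 without POLR2G replicate 1 (edgeR adjusted p = 0.673) and -1.93 without POLR2G replicate 3 (edgeR adjusted p = 0.262). The SD within the POLR2G group was 70.3% of its mean, the largest of the 25 tested genes that reached 50 counts in a library. Crat has 9 annotated coding transcripts, and its exons overlap those of Dolpp1 on the other strand.

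Acyl-CoA dehydrogenases take the first step of the spiral. Acadvl, for very-long chains, measured 464, 484, 448 and 437 CPM in POLR2G replicates 1, 3 and 4 and the unnumbered library, against 476, 491, 405 and 451 CPM in GFP control replicates 1 to 4 (log2 fold change 0.0080 ± 0.0765 SE, adjusted p = 0.994 in edgeR). The POLR2G values all lay inside the GFP control range, and the interval of the log2 fold change was -0.16 to 0.18. Acadl, for long chains, averaged 221 ± 13.5 CPM in POLR2G and 231 ± 8.45 CPM in GFP control livers (-0.064, SE 0.0657).

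The less studied family members Acad10 and Acad11 differed in opposite directions, and neither passed after adjustment. Acad10 (ENSMUSG00000029456; chromosome 5, 121621026 to 121660514, minus strand) measured 23.5, 28.9, 25.8 and 23.4 CPM in POLR2G replicates 1, 3 and 4 and the unnumbered library, against 21.7, 18.6, 17.2 and 20.4 CPM in GFP control replicates 1 to 4. All 4 POLR2G libraries lay above all 4 GFP control libraries, as for 2.83% of all genes tested. The mean was 1.30-fold higher (log2 fold change 0.38, SE 0.105, 95% interval 0.15 to 0.62). The exact permutation p was 0.0286, which no arrangement of 4 and 4 libraries can go below. Among all genes tested it ranked 148 by p and did not pass (edgeR unadjusted p = 0.00515, adjusted p = 0.359). Brap, whose start lies across the 48 bases printed above, averaged 12.7 ± 1.56 CPM in POLR2G and 11.7 ± 0.993 CPM in GFP control livers (log2 fold change 0.12, SE 0.124), with overlapping groups. Acad11 (ENSMUSG00000090150; chromosome 9, 104063377 to 104127725, plus strand) measured 4.10, 5.04, 2.85 and 1.86 CPM in the POLR2G libraries in the same order, against 6.45, 7.19, 4.58 and 6.83 CPM in GFP control replicates 1 to 4. The only overlap was POLR2G replicate 3 above GFP control replicate 3. Its log2 fold change was -0.85 (SE 0.306, edgeR unadjusted p = 0.0202, adjusted p = 0.486, exact permutation p = 0.0571). Acad11 had 31 to 126 counts in a library, and its exons overlap those of Ackr4 on the other strand and Gm28305 on the same strand. The part of these overlaps in the value was not tested.

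None of the 3 tested genes of the later spiral steps passed. Hadha and Hadhb encode both subunits of the mitochondrial trifunctional protein, which carries out hydration, oxidation and cleavage of long chains. Hadha averaged 210 ± 4.70 CPM in POLR2G and 224 ± 20.5 CPM in GFP control livers (log2 fold change -0.096, SE 0.0741), and Hadhb averaged 113 ± 6.34 CPM in POLR2G and 123 ± 22.9 CPM in GFP control livers (-0.12, SE 0.128). The ratio of Hadha to Hadhb CPM was 1.86 ± 0.113 in POLR2G and 1.86 ± 0.292 in GFP control libraries (exact permutation p = 0.971), and GFP control replicate 3 had the highest ratio, 2.30. Hadh, the short-chain hydroxyacyl-CoA dehydrogenase, measured 350, 375, 371 and 346 CPM in POLR2G replicates 1, 3 and 4 and the unnumbered library, against 341, 396, 345 and 387 CPM in GFP control replicates 1 to 4. The POLR2G values lay inside the GFP control range (log2 fold change -0.027 ± 0.0727 SE, adjusted p = 0.959 in edgeR). Decr1, which prepares unsaturated chains for the spiral, measured 219, 233, 207 and 220 CPM in the POLR2G libraries in the same order, against 263, 246, 184 and 223 CPM in GFP control replicates 1 to 4. The POLR2G values all lay inside the GFP control range (log2 fold change -0.060 ± 0.106 SE, adjusted p = 0.933 in edgeR). Eci1, the isomerase of the same branch, had a log2 fold change of 0.0080 (SE 0.123).

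The electron transfer flavoprotein takes electrons from the dehydrogenases and has an alpha and a beta subunit. Etfa, the alpha subunit, measured 420, 436, 414 and 432 CPM in POLR2G replicates 1, 3 and 4 and the unnumbered library, against 434, 429, 384 and 429 CPM in GFP control replicates 1 to 4 (log2 fold change 0.021 ± 0.0638 SE, adjusted p = 0.964 in edgeR). The groups overlapped, with GFP control replicate 3 lowest. Etfb, the beta subunit, averaged 327 ± 11.3 CPM in POLR2G and 293 ± 24.1 CPM in GFP control livers (log2 fold change 0.16, SE 0.0735, edgeR adjusted p = 0.620, exact permutation p = 0.0857). The ratio of Etfa to Etfb CPM was 1.25 to 1.33 in the 4 POLR2G libraries and 1.37 to 1.57 in the 4 GFP control libraries, without overlap (exact permutation p = 0.0286). It is 1 of 5 ratios compared between members, and its Benjamini-Hochberg adjusted p over these 5 exact tests was 0.143. Etfb has 5 annotated coding transcripts and Etfa 1.

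Of the 3 tested ketone genes, Slc16a1 had the largest fitted difference. Slc16a1 encodes a monocarboxylate transporter for ketone bodies, lactate and pyruvate (ENSMUSG00000032902; chromosome 3, 104638668 to 104658462, plus strand). It measured 45.4, 44.4, 40.5 and 45.9 CPM in POLR2G replicates 1, 3 and 4 and the unnumbered library, against 59.4, 49.5, 51.5 and 50.02 CPM in GFP control replicates 1 to 4. All 4 POLR2G libraries lay below all 4 GFP control libraries, as for 2.68% of all genes tested. The mean was 1.19-fold lower (log2 fold change -0.26, SE 0.0803, 95% interval -0.44 to -0.075), with an unadjusted p of 0.0105 and an adjusted p of 0.429 in edgeR and an exact permutation p of 0.0286. Slc16a1 has 1 annotated coding transcript, and its log2 fold change stayed between -0.33 and -0.19 over 21 alternative settings.

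Neither enzyme of ketone bodies on the list passed. Acat1, the mitochondrial acetoacetyl-CoA thiolase, measured 452, 481, 466 and 464 CPM in POLR2G replicates 1, 3 and 4 and the unnumbered library, against 474, 509, 364 and 480 CPM in GFP control replicates 1 to 4. Its log2 fold change was 0.028 (SE 0.101), with an exact permutation p of 0.943. The POLR2G values were close together, and GFP control replicate 3 was lowest of all. Bdh1, which converts acetoacetate to 3-hydroxybutyrate, measured 256, 243, 234 and 228 CPM in the POLR2G libraries in the same order, against 299, 282, 157 and 255 CPM in GFP control replicates 1 to 4. Here too GFP control replicate 3 lay far below the rest (log2 fold change -0.046, SE 0.173). Without that library the Bdh1 log2 fold change was -0.21 (edgeR unadjusted p = 0.0217, adjusted p = 0.473), and that of Hadhb was -0.24 (unadjusted p = 0.0131, adjusted p = 0.408).

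**Figure D2:**
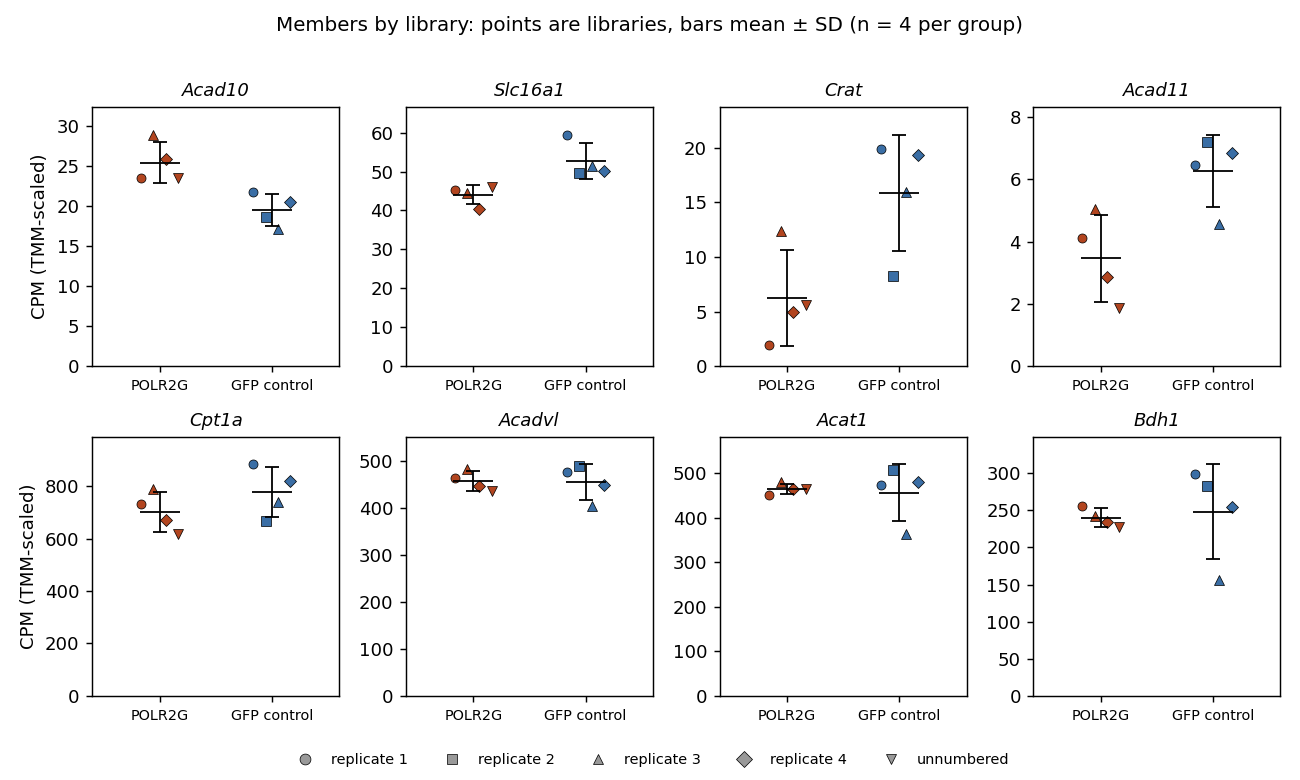
CPM (y axis, TMM-scaled) of 8 genes in each library; points are libraries with a symbol per replicate number, and bars are the mean ± SD of the 4 libraries of a group. Acad10 and Slc16a1 do not overlap between the groups, Crat and Acad11 overlap by 1 library on each side, and GFP control replicate 3 lies lowest for Acadvl, Acat1 and Bdh1.

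The spread of these genes is described without a test, because the genes share the same libraries and are not independent. The coefficient of variation was larger in GFP control than in POLR2G libraries for 19 of the 25 tested genes that reached 50 counts, with medians of 6.09% in POLR2G and 10.3% in GFP control libraries. GFP control replicate 3 was the lowest of its group for 15 of the 25 genes, and without it the GFP control median was 8.11%. In the POLR2G group, the unnumbered library was lowest for 11 genes and replicate 3 highest for 15. The summed CPM of the 4 ketone genes was 739 to 768 in the POLR2G libraries and 572 to 841 in the GFP control libraries, with GFP control replicate 3 at the low end. All 31 genes together summed to 5092 ± 159 CPM in POLR2G and 5289 ± 417 CPM in GFP control livers, and the groups overlapped. The carnitine shuttle genes summed to 972 ± 98.1 CPM in POLR2G and 1070 ± 106 CPM in GFP control livers, most of it Cpt1a.

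**Figure D3:**
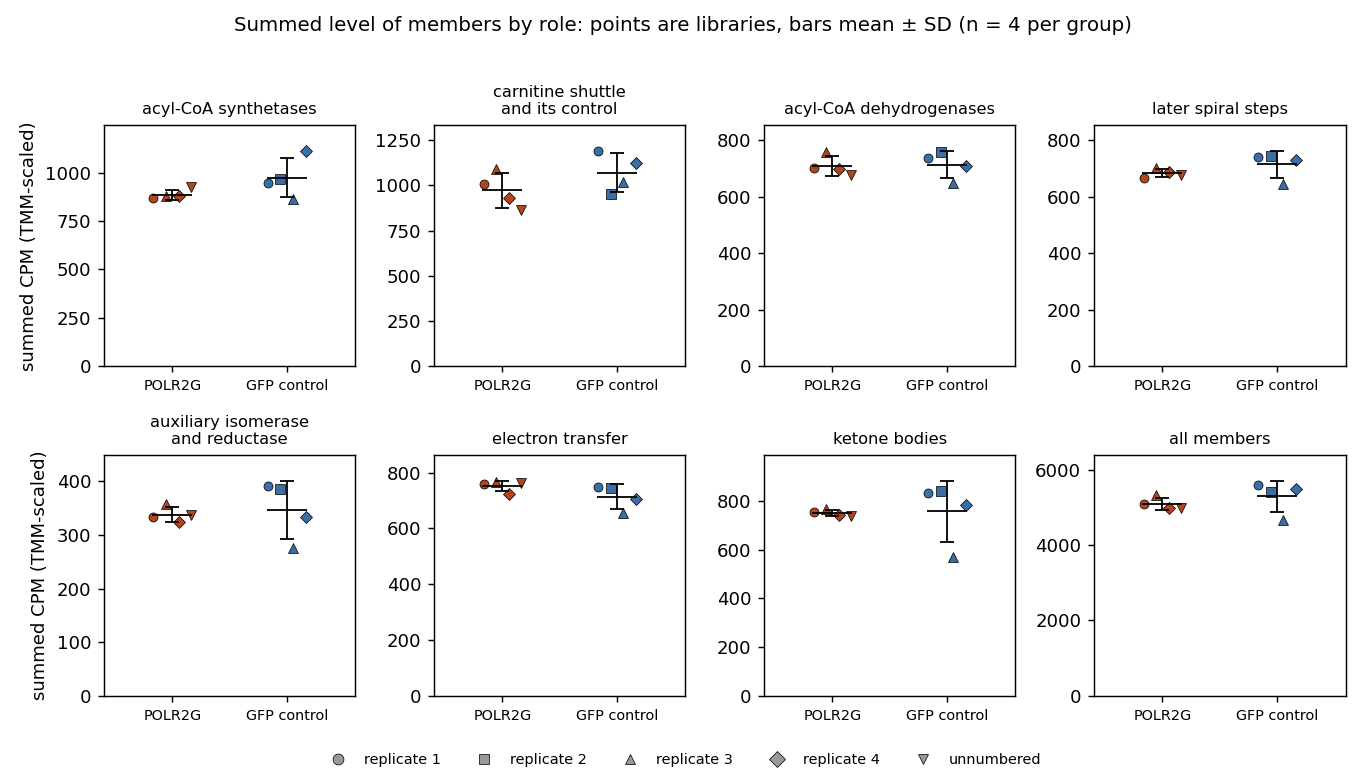
Summed CPM (y axis, TMM-scaled) of the genes of each role and of all 31 genes; points are libraries, bars the mean ± SD of 4 libraries per group. The groups overlap in every panel, and GFP control replicate 3 is lowest of its group in 6 of the 7 roles and in the total.

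**Figure D4:**
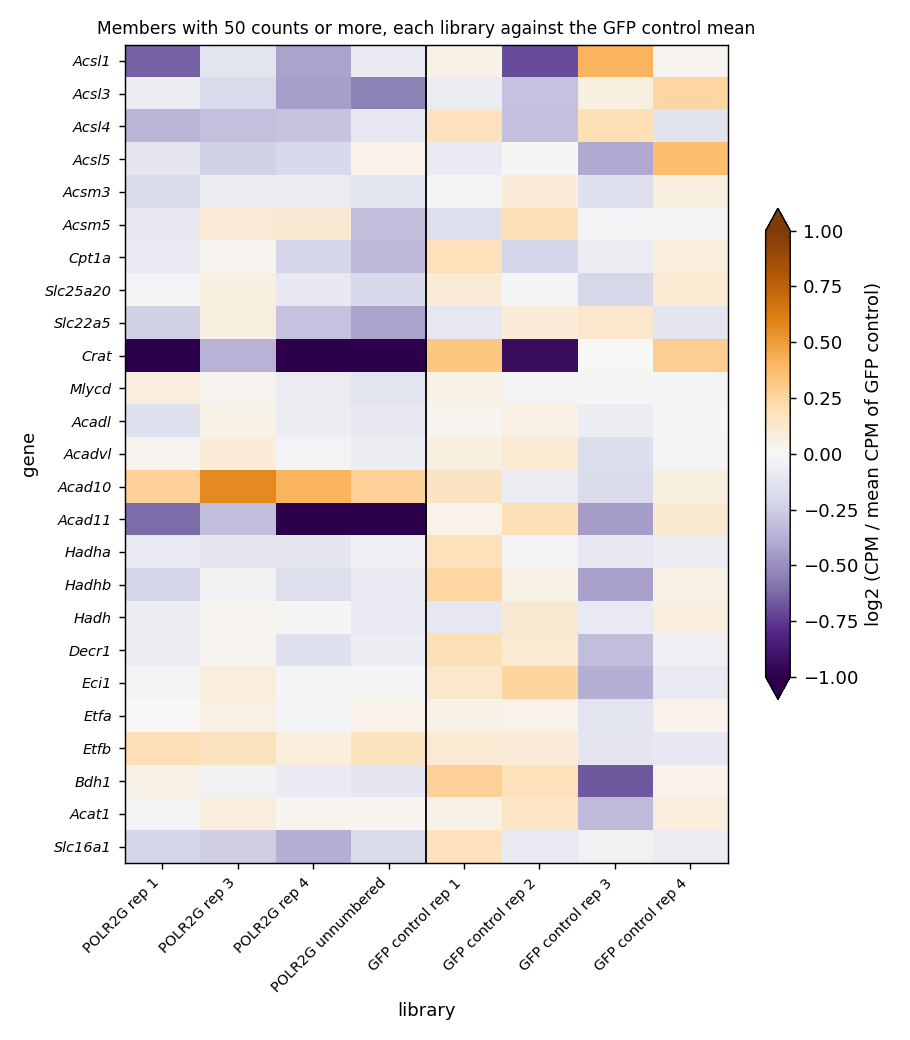
Log2 ratio of each library's CPM (columns) to the GFP control mean for the 25 tested genes with at least 50 counts in a library (rows); colours stop at 1 in either direction. Crat and Acad11 are low in the POLR2G columns and Acad10 high, while the GFP control replicate 3 column is low for Bdh1, Hadhb, Eci1, Acat1 and Decr1.

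Levels can be set side by side per length for the 10 genes with 1 annotated coding transcript. In CPM per kilobase of that transcript, Etfa was highest at 305 ± 7.36 in POLR2G and 301 ± 16.9 in GFP control livers, followed by Hadh at 201 ± 8.09 in POLR2G and 205 ± 15.8 in GFP control livers. Acat1 stood at 137 ± 3.48 in POLR2G and 134 ± 18.7 in GFP control livers. Acadl stood at 116 ± 7.03 in POLR2G and 121 ± 4.41 in GFP control livers. These 2 neighbours did not differ beyond the spread of Acat1 in the GFP control group. In the POLR2G group their means lay further apart than either SD. Decr1 (74.2 in POLR2G, 77.4 in GFP control) and Slc25a20 (72.6 in POLR2G, 75.7 in GFP control) were not apart beyond their spread in either group. Hadha (52.2 in POLR2G, 55.8 in GFP control) and Mlycd (44.6 in POLR2G, 45.4 in GFP control) came next, and the transporter genes Slc22a5 (12.5 in POLR2G, 14.5 in GFP control) and Slc16a1 (9.95 in POLR2G, 11.9 in GFP control) were lowest. The order was the same in both groups.

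Acadm, Acaa2, Slc16a6, Acsm1 and Cpt2 had fewer than 50 counts in every library, and Etfdh had at most 61. Acadm, the medium-chain dehydrogenase, had 0 to 3 counts in the POLR2G libraries and 0 to 24 in the GFP control libraries. Acaa2, the thiolase of the last step, had 0 to 3 counts in the POLR2G libraries and 1 in each GFP control library. Etfdh, which passes electrons to ubiquinone, had 0 to 20 counts in the POLR2G libraries and 0 to 61 in the GFP control libraries, while Etfa had 5956 to 8702 over all 8 libraries. Slc16a6, a transporter that exports ketone bodies from the liver of zebrafish, had 4 to 14 counts in the POLR2G libraries and 1 to 7 in the GFP control libraries. Acsm1 had 14, 33, 7 and 9 counts in POLR2G replicates 1, 3 and 4 and the unnumbered library, against 0, 5, 0 and 7 in GFP control replicates 1 to 4. In CPM all 4 POLR2G libraries lay above the GFP control libraries, by as little as 0.399 against 0.379 CPM. These 5 genes failed the filter on low counts and were not tested in the main edgeR fit. In the edgeR fit without that filter, 1 of the 5 was higher in the POLR2G libraries at an unadjusted p under 0.05. The share over the 15472 genes of that fit is not given, and 0 of the 31 genes passed after adjustment in it. Cpt2, the inner-membrane enzyme of the shuttle, passed the filter with 2 to 31 counts in the POLR2G libraries and 10 to 27 in the GFP control libraries. Its log2 fold change was 0.23 ± 0.623 SE (adjusted p = 0.958 in edgeR), with an interval too wide to show a change. Acadm, Acaa2 and Etfdh have 2 annotated coding transcripts each, Acsm1 3, and Slc16a6 and Cpt2 4. None of the 10 list genes with 1 coding transcript had fewer than 552 counts in any library. Outside the list, Acsm4 and Acss1 also have 1 coding transcript and had 0 and 0 to 6 counts. On the list, Acsl5 has 4 coding transcripts and 5573 to 11335 counts, and Acadvl has 2 and 6278 to 9615 counts. A relation of transcript number to counts was not tested. How transcripts were combined into genes is not given in the sources used here, and whether the gene values cover all transcripts was not tested.

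Other genes of the pathway were not called either. Of 28 further symbols of mitochondrial oxidation and ketone metabolism listed, which hold Mut also as Mmut, 27 had a row. Of these, 19 were tested and edgeR called 0, with 1 higher and 1 lower at an unadjusted p under 0.05. The shares over all genes tested were 4.2% higher and 4.1% lower. The median log2 fold change of the 19 was -0.044. The 2 with the smallest p were Acot2, a mitochondrial acyl-CoA thioesterase (-0.78, SE 0.272, edgeR adjusted p = 0.479), and Pccb, a subunit of propionyl-CoA carboxylase (0.33, SE 0.141, edgeR adjusted p = 0.590). Of 18 regulators listed, 16 were tested, edgeR called 0, and 3 had an unadjusted p under 0.05, all lower, beside 4.1% of all genes tested. The 2 with the smallest p were Ppargc1a, a coactivator of oxidation genes, at 11.9 to 16.0 CPM in POLR2G and 16.6 to 22.2 CPM in GFP control livers (edgeR adjusted p = 0.360), and Ncor1, a corepressor of nuclear receptors, at 37.0 to 43.3 CPM in POLR2G and 44.2 to 61.6 CPM in GFP control livers (edgeR adjusted p = 0.495). Both had groups that did not overlap, with the POLR2G libraries below, as for 2.68% of all genes tested. Ppara, the receptor gene itself, had overlapping groups (-0.15, SE 0.132, edgeR adjusted p = 0.825).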

How the data were processed

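The table holds estimated counts as whole numbers, which the authors deposited without normalization. Per the labels' protocols, RNA was poly-A selected and libraries were strand-specific, and the submitters' processing notes name Salmon 1.2.1 and the builds GRCm38 and mm10. The annotation is not given in the sources used here, nor is the use of strand in counting or the step from transcripts to genes. Exons of 13 of the 31 genes overlap another gene in GENCODE M21, 11 of them on the opposite strand. Symbols, coordinates and transcript numbers are from GENCODE M21 (GRCm38), which named 20817 of the genes. Columns were matched to samples by library name, and 1 POLR2G column without a match entered by its group.

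The genes and lists were chosen with earlier results of these data known. Genes are named in full if they passed an unadjusted p of 0.05, did not overlap between groups or had the highest CPM of their role. The test was edgeR 4.0.16 (R 4.3.3; TMM; filterByExpr with a minimum count of 10 and total of 15; group only; two-sided), with Benjamini-Hochberg adjustment over 10390 genes and a threshold of 0.05. The SE is the log2 fold change divided by the square root of F. Exact two-sided permutation tests used log2 CPM with a prior count of 2 and all 70 arrangements. Alternatives were DESeq2 1.42.0, limma-voom (limma 3.58.1), other scalings and filters, a replicate block and each library left out. The fits were tested on simulated counts. No 2 libraries of a group were duplicates (chi-square over its degrees of freedom 12.9 to 127 for the 12 pairs). P-values weigh the difference between groups against the spread between libraries, which may be technical in part. Depth limits the precision of genes with few counts.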

Additional observations from a re-analysis of the deposited data

Results flagged for a closer look

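2 gene values lay far from the other 3 libraries of their group, of 50 groups of 4 examined, where chance flags about 1 in 20. Etfa was 384 CPM in GFP control replicate 3, against 429 to 434 CPM in the other GFP control libraries. Eci1 was 124.7 CPM in POLR2G replicate 3, against 116 to 117 CPM in the other POLR2G libraries.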

How the results depend on the processing

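The count of oxidation and ketone genes past the threshold was 0 under every alternative run, and their median log2 fold change stayed negative (-0.14 to -0.028). The count over all genes was 4, against 140 with DESeq2, 1 with library totals only, 2 with the replicate block over the 6 libraries whose number is found in both groups, 1 in the same 6 libraries without the block, and 1 to 6 when 1 library was left out (1 without POLR2G replicate 1 or 4, 2 without the unnumbered POLR2G library or GFP control replicate 2). Genes of the list with an unadjusted p under 0.05 numbered 1 higher, against 2 with DESeq2, limma-voom, upper quartile scaling or no low-count filter, and 0 among genes with 1 coding transcript (1 to 2 with a library left out, at 2 without GFP control replicate 1 or 2). They numbered 3 lower, against 7 with library totals only and 1 among genes with 1 coding transcript, and 2 to 6 with a library left out, at 5 without GFP control replicate 2 and 6 without GFP control replicate 3. Scaling by library totals moved the median of all genes to -0.079. Shares of all genes at an unadjusted p under 0.05 are not given for the alternatives, so these counts have no background beside them. Deviations of same-numbered libraries had correlations of 0.068, -0.017 and 0.023, beside -0.081 to 0.057 for libraries with different numbers. The labels do not say that the numbers pair animals, and correlations over so few libraries cannot decide it. The fits of the 6 libraries without the block and of genes with 1 coding transcript were chosen after seeing the data. Among single genes of the list, no alternative brought one past the threshold, and 28 alternative fold changes took the other sign. Of these, 4 lay more than 1 SE of the main fit away from the main value. They were Acsl5 without GFP control replicate 4, Acsm5 in the 6 libraries with and without the block, and Etfa with library totals only. Counts were lowest for Cpt2 and the 5 genes not tested in the main fit.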
